A study of Rattus norvegicus with 6 samples.

Results

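Col1a1, Col1a2 and Col3a1, the genes for the main fibrillar collagen chains, and Fn1, the gene for fibronectin, were followed in cultured neonatal rat ventricular cardiomyocytes. They are 4 of the 34052 features in the deposited expression table and were taken by their Ensembl numbers: ENSRNOG00000003897 for Col1a1, ENSRNOG00000011292 for Col1a2, ENSRNOG00000003357 for Col3a1 and ENSRNOG00000014288 for Fn1. The study sequenced poly(A) RNA from 3 libraries of cells exposed for 24 h to erastin at 10 µM and from 3 libraries of control cells. The cells of both groups were primary ventricular cells of neonatal rats. The sources used here give no genotype, strain, sex or exact age for either group, and the control treatment is called vehicle in the title of the deposited table, with no solvent named. Erastin inhibits cystine import by the cystine/glutamate antiporter, which starves cells of glutathione, and is a standard inducer of ferroptosis, a form of cell death driven by iron and lipid peroxidation.

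Collagens are made of chains that wind into a triple helix inside the cell, are secreted as procollagen and assemble into fibrils once their end pieces are trimmed. Type I collagen contains alpha-1 chains, from Col1a1, and alpha-2 chains, from Col1a2, with more of the former, while type III collagen contains only chains from Col3a1. Fibronectin is a secreted glycoprotein that binds integrins and collagen and forms a network on which collagen fibrils assemble. In the heart fibroblasts are the main source of these transcripts, and cultures of neonatal cardiomyocytes usually keep some fibroblasts. In RNA from whole cultures, fewer cells of a type and less RNA per cell cannot be told apart. The deposited IDs could not be paired with gene symbols (0 of 34052 matched), so markers of fibroblasts, cardiomyocytes and other cell types were not analysed here, and the part of cell composition in the results below was not tested.

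Erastin was followed by opposite changes within this small set. Fn1 rose 1.65-fold, Col3a1 fell 1.92-fold, Col1a1 fell 1.10-fold and Col1a2 did not pass the test. Levels are taken as FPKM, fragments scaled by the counted length of the gene and the total of the library, so that levels of different genes can be set side by side. All 4 genes passed the minimum of 1 FPKM in at least 3 libraries, as did 13576 features in all. Library totals recovered from the steps of the FPKM, under choices given with the processing, were 11126968 to 14914827 reads. The 4 genes had 2737 to 56864 reads in a library. Whether replicates were separate cultures or litters is not stated in the labels, and p-values therefore reflect the spread among the sequenced libraries, part of which may be technical.

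The changes have to be read against a broad response. In limma with Benjamini-Hochberg adjustment over all tested features, 66.4% of them changed at an adjusted p under 0.05: 42.3% rose and 24.1% fell. The 3 of 4 genes that changed are thus close to the background. Of the 4, 1 rose and 2 fell, and their median log2 fold change was -0.20 against 0.13 over all tested features. Centring each library on its median log ratio shifts every value by about 0.13 downward, and centred values are given below.

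**Figure D1:**
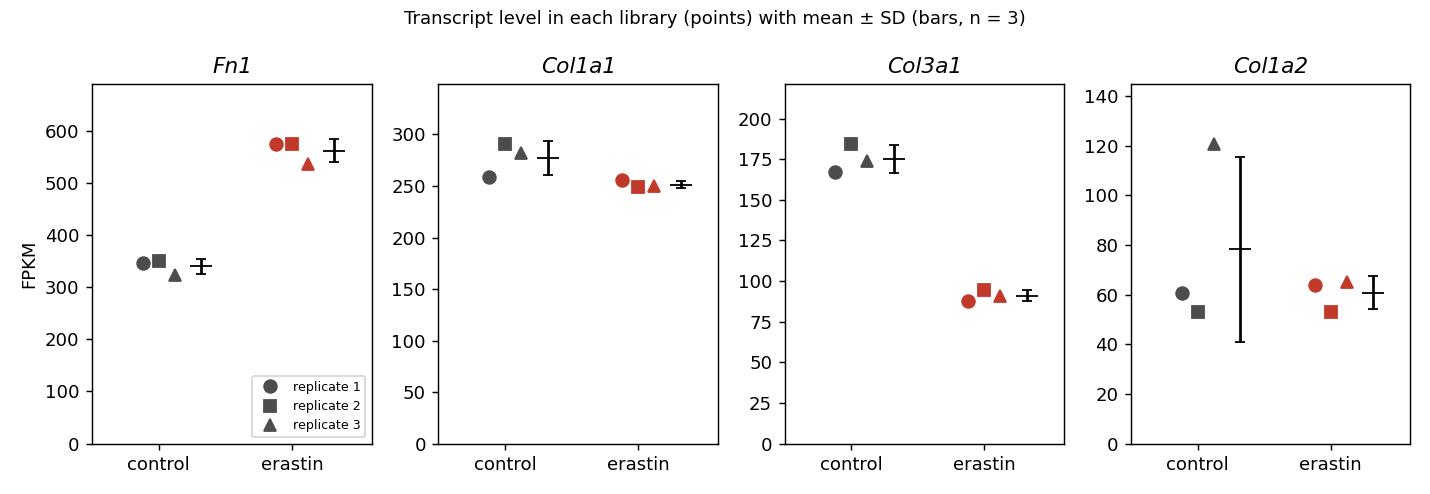
FPKM of each gene in each library (points; symbols mark replicate numbers) in control (grey) and erastin (red) libraries, with mean ± SD (black, n = 3) and axes that start at 0. The groups do not overlap for Fn1, Col1a1 and Col3a1, while the Col1a2 value of control replicate 3, 120.9 FPKM, lies above the other 5 libraries.

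Fn1 was the most abundant of the 4 genes and the one that rose. Its level was 345.5, 350.7 and 324.2 FPKM in control replicates 1 to 3. In erastin replicates 1 to 3 it was 575.1, 574.7 and 535.7 FPKM. Every erastin library lay above every control library, with the third replicate lowest in both groups. The means were 340.1 ± 14.0 and 561.8 ± 22.6 FPKM (SD, n = 3). This gave a log2 fold change of 0.72 on the log2(FPKM + 1) scale (SE 0.043, 95% confidence interval 0.62 to 0.82, limma adjusted p = 3.01e-06) and of 0.59 after centring. Among all tested features 1535, or 11.3%, had a larger positive log2 fold change. Fn1 moved from rank 198 to 213 by FPKM in control libraries to rank 107 to 115 in erastin libraries. It took 0.267% to 0.289% of the reads of a control library and 0.441% to 0.474% of those of an erastin library. The table gives 1 value per gene, so the splice forms of fibronectin, which differ in whether extra type III domains are included, were not separated.

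Col3a1, the gene for type III collagen, a component of the compliant fibrils found with type I collagen in the heart, was the gene that fell most. Control replicates 1 to 3 were at 167.2, 184.6 and 173.9 FPKM. Erastin replicates 1 to 3 were at 88.0, 94.3 and 91.1 FPKM. The groups were far apart relative to the spread within them. The means were 175.2 ± 8.77 and 91.1 ± 3.14 FPKM (SD, n = 3). The log2 fold change was -0.94 (SE 0.045, 95% confidence interval -1.04 to -0.83, limma adjusted p = 9.57e-07) and -1.06 after centring. Of all tested features, 769, or 5.66%, had a more negative log2 fold change. The gene went from rank 418 to 468 in control to rank 1037 to 1129 in erastin libraries, on 9169 to 13119 reads and 4675 to 5399 reads.

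Col1a1 showed a small decrease whose call was not kept in all alternatives. It was at 259.1, 291.1 and 281.8 FPKM in control replicates 1 to 3. It was at 255.5, 249.0 and 249.7 FPKM in erastin replicates 1 to 3. The highest erastin value lay just under the lowest control value, so the groups did not overlap, but by a narrow margin. The means were 277.3 ± 16.5 and 251.4 ± 3.58 FPKM (SD, n = 3), a change of -9.35%. The log2 fold change was -0.14 (SE 0.045, 95% confidence interval -0.24 to -0.03, limma adjusted p = 0.0259) and -0.27 after centring (limma adjusted p = 0.0016). The call was lost in 6 of 15 alternatives: without control replicate 2 (log2 fold change -0.10, limma adjusted p = 0.0872), control replicate 3 (-0.13, adjusted p = 0.0748), erastin replicate 2 (-0.13, adjusted p = 0.0724) or erastin replicate 3 (-0.13, adjusted p = 0.0594), without a filter on low values (adjusted p = 0.0517) and with a constant prior (adjusted p = 0.0637). The call was kept in the other 9, at a limma adjusted p of 0.0016 (centring) to 0.0441 (without erastin replicate 1). The sign of the Col1a1 change was negative in all 15, with log2 fold changes of -0.27 to -0.10.

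The groups of Fn1, Col3a1 and Col1a1 did not overlap, 3 of 4 genes, where 72.0% of all tested features had groups that did not overlap.

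Col1a2, which codes for the partner chain of Col1a1 in type I collagen, was the gene without a call, and 1 control library set its wide control spread. Control replicates 1 to 3 were at 60.7, 53.2 and 120.9 FPKM. Erastin replicates 1 to 3 were at 63.9, 53.1 and 65.3 FPKM. The groups overlapped, and 5 of the 6 libraries lay between 53.1 and 65.3 FPKM. The means were 78.2 ± 37.1 and 60.8 ± 6.71 FPKM (SD, n = 3). The log2 fold change was -0.27 with a 95% confidence interval of -1.21 to 0.68 (SE 0.355, limma adjusted p = 0.543). After centring it was -0.40 (limma adjusted p = 0.384). Without control replicate 3 the log2 fold change was 0.09 (limma adjusted p = 0.502), so the direction turned with that library.

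The high Col1a2 value of control replicate 3 was not shared by the other 3 genes in that library. There Col1a1 and Col3a1 were between the other control values and Fn1 was the lowest of the 3. The value rested on 5970 reads, against 2996 and 3403 in control replicates 1 and 2, and was 1.99-fold the higher of both. At the mean depth of the control libraries counting error is about 1.56%, while the coefficient of variation over the control libraries was 47.5%. Of 2405 tested features within a factor of 2 of its mean level, 99.5% had a lower control coefficient of variation, with a median of 3.37%. The other 3 genes varied by 4.12% to 5.95% among control libraries and by 1.42% to 4.02% among erastin libraries. Their control spread was also above the median of features of like level. Of such features 83.5% had a lower control coefficient of variation than Col1a1, 77.1% than Col3a1 and 64.0% than Fn1. By a threshold of 1.5-fold above both other libraries of the group, chosen after the values were seen, control replicate 3 stood apart in 18 of 6788 features at or above the median level, Col1a2 among them, and the other libraries in 12 to 21.

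The RefSeq sequence upstream of Col1a2 (assembly GRCr8, plus strand, chr4:33518307-33518412) is shown as that of the 1 gene of the 4 matched in the sequence table used here. It is the first 106 bases of the 250-base window before the annotated start. Capitals mark the matches to the CCAAT box, here on the other strand as ATTGG, and to the TATA box, TATAAA, which were searched on both strands and do not overlap.
Col1a2 upstream: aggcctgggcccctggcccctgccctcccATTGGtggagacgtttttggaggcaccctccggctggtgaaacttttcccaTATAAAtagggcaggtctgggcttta
The CCAAT match begins 221 bases and the TATAAA match 170 bases before the annotated start. The RefSeq transcript begins with ATG, the letters of a start codon, so these distances are counted from there. Among 33469 windows of 250 bases before annotated starts, 34.0% held CCAAT and 12.9% held TATAAA on either strand. These matches describe the letters and do not show that a factor binds. The build behind the deposited table is not given in the sources used here, and the sequence was matched by symbol.

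**Figure D2:**
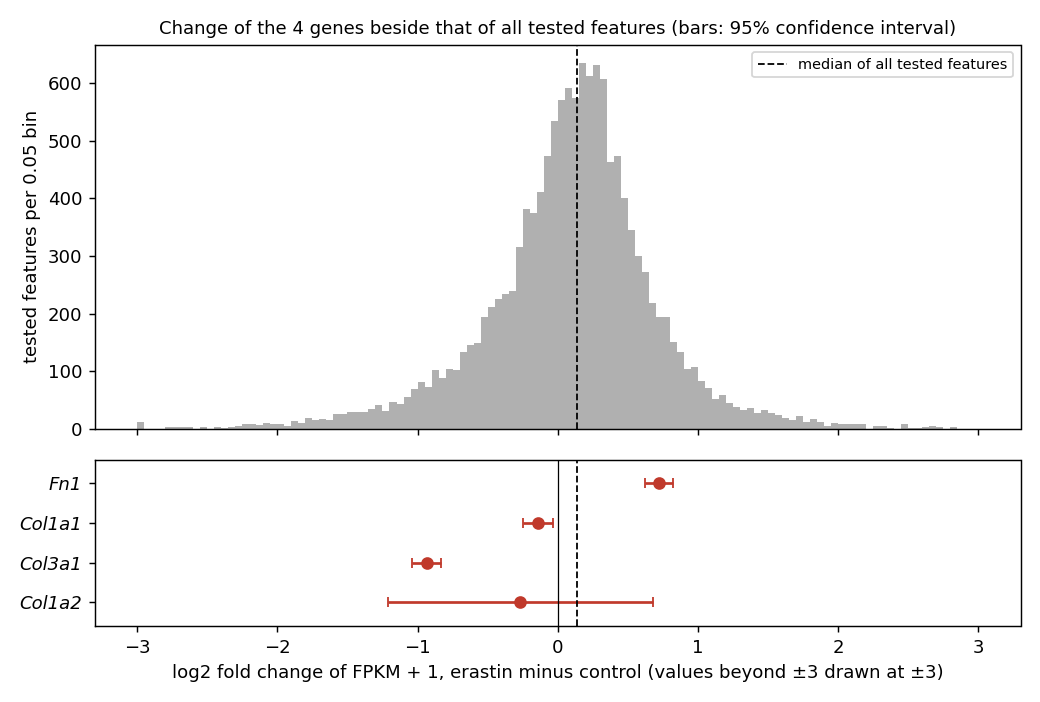
Log2 fold change of FPKM + 1, erastin minus control, for all 13576 tested features (upper panel, histogram, dashed line at their median) and for the 4 genes with 95% confidence intervals (lower panel). Fn1 lies to the right of the median at 0.72, Col1a1 and Col3a1 lie to its left at -0.14 and -0.94, and the interval of Col1a2 spans 0.

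The order of the 4 genes by FPKM was Fn1, Col1a1, Col3a1 and Col1a2 in all 6 libraries. Neighbours in this order did not overlap within either group: the closest in control libraries were Fn1, at 324.2 FPKM at least, and Col1a1, at 291.1 FPKM at most. In erastin libraries the closest were Col3a1, at 88.0 FPKM at least, and Col1a2, at 65.3 FPKM at most.

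Ratios within a library do not depend on its scaling, and they show how unequally the genes changed. Each of the 6 pairs was put to an exact two-sided permutation test, for which 3 against 3 libraries cannot give a p under 0.1, and the p-values were adjusted over the 6 pairs. The pairs Fn1:Col3a1, Col3a1:Col1a2 and Fn1:Col1a2 were added after the values were seen.

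The balance between Fn1 and Col3a1 transcripts differed most between the groups. This follows from their fold changes, as Fn1 rose and Col3a1 fell most, and is not separate evidence. The ratio of Fn1 to Col3a1 was 2.07, 1.90 and 1.86 in the control libraries, by replicate number, and 6.54, 6.10 and 5.88 in the erastin libraries. It was 3.18-fold higher with erastin, with no overlap between groups (log2 difference 1.67, exact permutation p = 0.1, adjusted p = 0.15). The ratio of Fn1 to Col1a1 was 1.15 to 1.33 in control and 2.15 to 2.31 in erastin libraries, 1.82-fold higher (log2 difference 0.86, exact permutation p = 0.1, adjusted p = 0.15).

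Col3a1 was lower relative to Col1a1 in every erastin library than in any control library. The ratio of Col3a1 to Col1a1 was 0.645, 0.634 and 0.617 in control replicates 1 to 3. It was 0.344, 0.379 and 0.365 in erastin replicates 1 to 3. The groups did not overlap and the ratio was 1.74-fold lower with erastin (log2 difference -0.80, exact permutation p = 0.1, adjusted p = 0.15). Over the 6 libraries left out in turn this difference ranged from -0.83 to -0.77.

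The ratio between both chains of type I collagen did not differ beyond the spread between libraries. Col1a1 to Col1a2 was 4.27, 5.48 and 2.33 in control replicates 1 to 3. It was 3.997, 4.69 and 3.82 in erastin replicates 1 to 3. The erastin values lay within the control range (log2 difference 0.13, exact permutation p = 0.9). Without control replicate 3 the log2 difference was -0.22 (exact permutation p = 0.3), the opposite sign. In every library Col1a1 was more than 2-fold above Col1a2 per length.

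The pairs with Col1a2 carried the same wide control spread. Col3a1 to Col1a2 was 2.76, 3.47 and 1.44 in control and 1.38, 1.78 and 1.39 in erastin replicates 1 to 3, so that the groups overlapped through control replicate 3 (log2 difference -0.67, exact permutation p = 0.2). Fn1 to Col1a2 was 2.68 to 6.60 in control and 8.20 to 10.8 in erastin libraries, without overlap (log2 difference 1.00, exact permutation p = 0.1). Without control replicate 3 these log2 differences were -1.04 and 0.60.

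**Figure D3:**
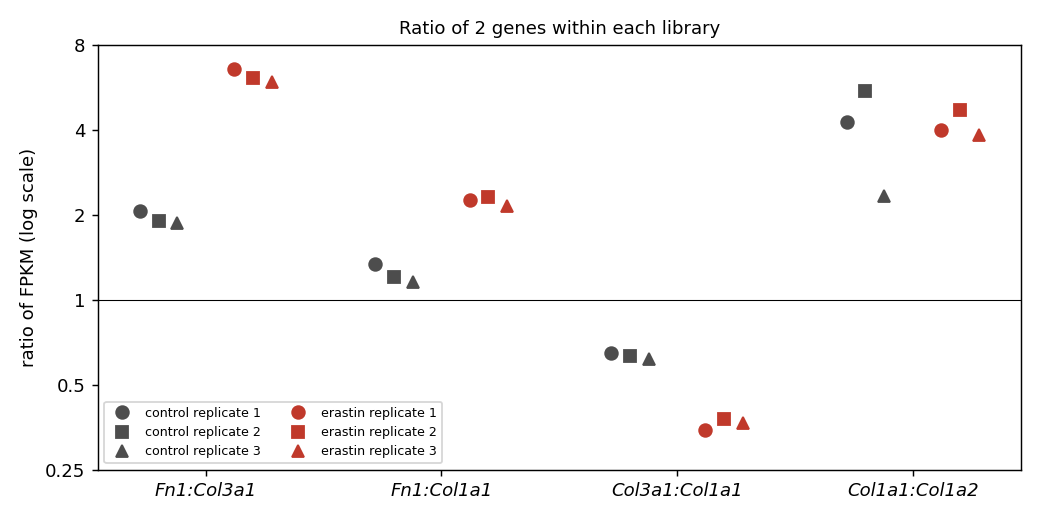
Ratio of the FPKM of 2 genes within each library, on a log scale, for control (grey) and erastin (red) libraries, with symbols for replicate numbers. Fn1:Col3a1 runs from 1.86 to 2.07 in control and from 5.88 to 6.54 in erastin libraries, while the erastin values of Col1a1:Col1a2 lie within the control range of 2.33 to 5.48.

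Together the 4 genes held a higher share of every erastin library than of any control library, with Fn1 the gene that added to it. Their summed share of the FPKM was 0.152%, 0.163% and 0.167% in control replicates 1 to 3. It was 0.182%, 0.180% and 0.174% in erastin replicates 1 to 3, a difference of 0.018 percentage points (exact permutation p = 0.1). The 3 collagens alone held less of every erastin library, at means of 0.0978 ± 0.00874% in control and 0.0746 ± 0.00102% (SD, n = 3; exact permutation p = 0.1). As a share of recovered reads the 4 genes went from 0.559 ± 0.0153% to 0.679 ± 0.0180% (SD, n = 3), where the long Fn1 transcript, counted over 8234 bases, weighs more than Col1a2, counted over 4292 bases.

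Features with the most similar profile were sought for each gene by Pearson correlation of log2(FPKM + 1) over the 6 libraries, among 6787 features at or above the median level of 12.51 FPKM. For Fn1 and Col3a1 such correlations mostly follow the difference between the 2 groups. For Col1a1 and Col1a2 they also follow the spread among control libraries. All are a description. The features most like Fn1 and Col3a1 were picked for that likeness, so their rise or fall follows from the choice and is not separate evidence. How many features reached a similar r was not counted. The feature most like Fn1 was ENSRNOG00000021029 (r = 0.9998), which rose 7.32-fold, from 38.7 ± 6.19 to 283.2 ± 35.4 FPKM (SD, n = 3; log2 fold change 2.84, limma adjusted p = 3.61e-05). The feature most like Col3a1 was ENSRNOG00000010635 (r = 0.9997), which fell 2.75-fold, from 19.4 ± 1.53 to 7.05 ± 0.430 FPKM (SD, n = 3; log2 fold change -1.34, limma adjusted p = 1.49e-06). For Col1a1 and Col1a2 the closest features had r = 0.993 and 0.977 and did not pass the test themselves (limma adjusted p = 0.209 and 0.661).

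**Figure D4:**
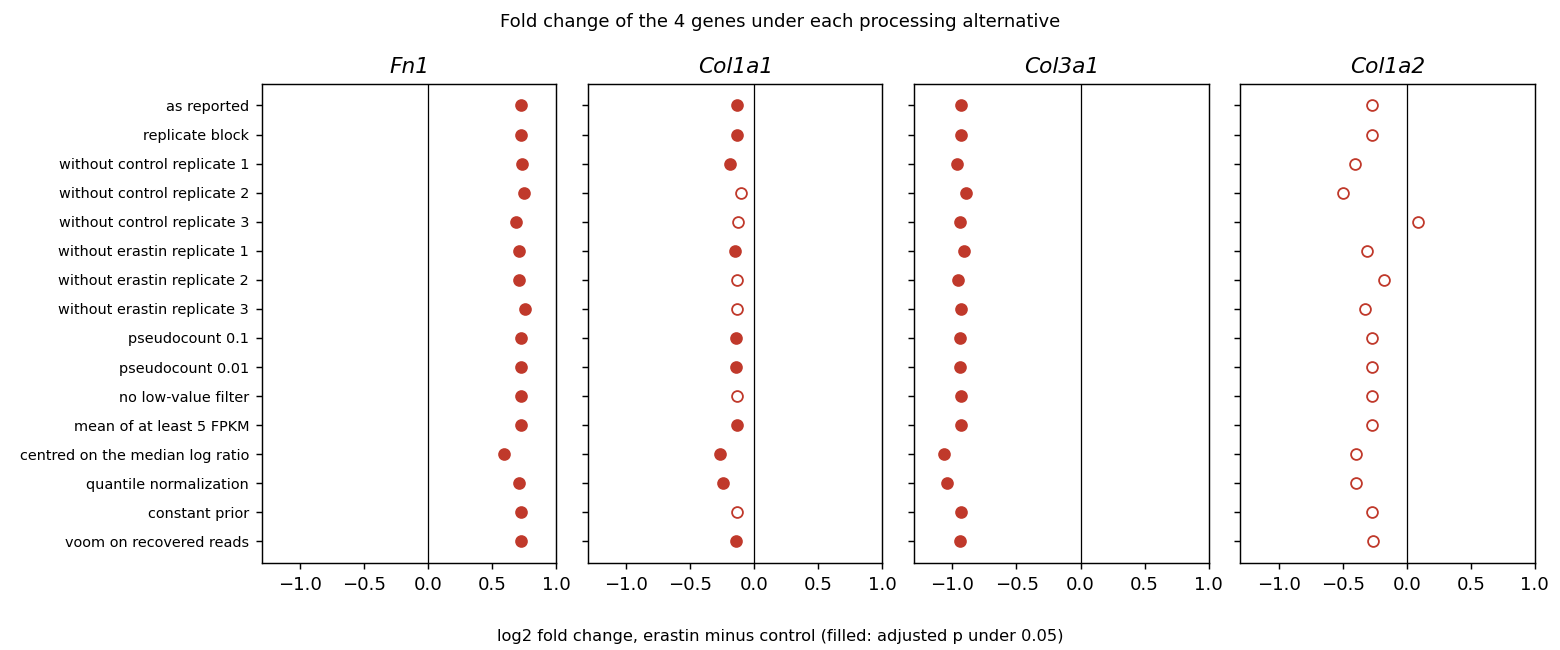
Log2 fold change, erastin minus control, of each gene as reported and under 15 processing alternatives (rows), with filled points where the limma adjusted p is under 0.05. Fn1 and Col3a1 are filled in every row, Col1a1 is open in 6, and Col1a2 is open throughout and lies above 0 only without control replicate 3.

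Fn1 and Col3a1 passed the test in the same direction in all 15 alternatives, with log2 fold changes of 0.59 to 0.76 for Fn1 and -1.06 to -0.90 for Col3a1.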

How the data were processed

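RNA of 6 libraries, grouped by their titles, was sequenced as strand-marked poly(A) libraries with paired ends, per the labels' protocols. The submitters' processing notes name HISAT2 2.0.5 and DESeq2 with no role. The counter, genome build and annotation behind the table were not given in the sources used here. A single table (34052 features, 32883 with Ensembl IDs) was deposited by the authors, and its header names no unit. The deposited values were taken as FPKM from their steps, which depend on a length per feature and a total per library. Abundant features then shift all others. Of the tested values above 0, 100% equalled a whole number of reads within a relative tolerance of 1e-06, and all 13576 tested features were resolved. The median tested feature had 305 reads.

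The test was limma 3.58.1 (R 4.3.3), run on log2(FPKM + 1) of features that reached 1 FPKM in 3 or more libraries, with a robust, trended prior and Benjamini-Hochberg adjustment at 0.05. Fold changes on this scale understate those of low features. The fit and the recovery of reads were tested on simulated data. Mean chi-square per feature between libraries of a group was 2.96 to 5.41, above sampling noise, so none was treated as a copy. Python 3.11.15, numpy 2.4.6, pandas 2.3.3 and matplotlib 3.10.9 were used.

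The 4 genes and all gene lists were chosen with earlier results of these data known. By the rule for named genes, the 4 genes, listed pathway and marker genes and the feature most like each gene were to be named. The 102 pathway symbols and the marker lists were not analysed here, because the RefSeq table (GRCr8) holds none of the table's IDs. Features without a symbol are named by ID where they passed the test. RefSeq upstream sequence was matched by symbol for 1 of the 4 genes.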

Additional observations from a re-analysis of the deposited data

How the results depend on the processing

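Fn1 and Col3a1 kept direction and call in 15 alternatives: libraries left out singly, the replicate block, a pseudocount of 0.1 or 0.01, no low-value filter, a filter at a mean of 5 FPKM, centring, quantile normalization, a constant prior and voom on recovered reads. Leaving out 1 library gave 0.69 to 0.76 for Fn1, -0.97 to -0.90 for Col3a1, -0.19 to -0.10 for Col1a1 and -0.49 to 0.0903 for Col1a2 on the log2 scale. Col1a1 stayed at -0.14 but lost its call without a filter and with a constant prior. Without control replicate 3 the signs of Col1a2 (0.0903) and of Col1a1:Col1a2 (-0.22) turned. Over libraries left out, Col1a1:Col1a2 ranged from -0.22 to 0.40. The cause was not tested. The number of changed features was 9011 of 13576 tested, or 66.4%. It was 7230 with the filter at a mean of 5 FPKM and 9308 with no low-value filter, which test other numbers of features. The other alternatives lay between these counts. In the alternatives 2 or 3 of the 4 genes changed, and these counts were not set against a share of features in each. Centring gave 4253 rising and 4287 falling features in place of 5744 and 3267. The joint share differed by 0.018 percentage points of FPKM and 0.12 of reads.

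With the replicate block the 4 log2 fold changes were as reported, 8768 features changed and no call on the 4 genes was altered (limma adjusted p = 0.0438 for Col1a1). The block also left the mean differences of the ratios as reported, with an exact sign-flip p of 0.25 at least, the smallest 3 pairs can give. The labels do not pair libraries, and deviations of same-numbered libraries correlated at -0.03, 0.07 and 0.03, against -0.07 to 0.04 between different numbers. With 3 libraries a group, the confidence interval of the Col1a2 log2 fold change ran from -1.21 to 0.68. Neither a fall nor a rise within these limits was excluded. The wide control spread of Col1a2 was set by control replicate 3. Its counting error at the mean depth of the control libraries was about 1.56%.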
